A study of Mus musculus with 32 samples.

Results

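*Trp53*-deleted and *Trp53* wild-type lung tumors were compared, all with the *Lkb1* gene (symbol *Stk11*) switched off. Tumor age differed together with *Trp53*. The 7 *Trp53*-deleted libraries, of 32 in the series, were those labelled Non-Restored; Trp53delta/delta. By their titles they came from 4 animals, 3 libraries from animal 1, 2 from animal 2 and 1 each from animals 3 and 4, and libraries of one animal were summed. They were set against the 10 libraries labelled as non-restored with wild-type *Trp53*. All 17 libraries carried a Rosa26LSL-tdTomato reporter and Lkb1XTR/XTR, a gene trap that Cre turns on to silence *Lkb1*. The *Trp53*-deleted animals carried Trp53flox/flox in addition. Tumors were started by lentiviral Cre given through the trachea of young adult mice of a mixed C57BL/6J:129 background, and the cell type in which Cre acted is not given in the sources used here.

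The trap stayed on in both groups for either of 2 reasons. Animals 1 and 2 and 6 of the wild-type libraries had the recombinase allele Rosa26FLPo-ERT2 but received vehicle, and animals 3 and 4 and 4 wild-type libraries lacked that allele and received tamoxifen in doses of 4 mg. Treatment lasted 2 weeks. The titles of animals 1 and 2 begin with JB, and those of animals 3 and 4 and of all wild-type libraries with rSP. Title series and treatment thus coincide within the deleted animals, and with vehicle the series also differs between the groups. What the series mean is not given. *Trp53*-deleted tumors were collected 16 to 19 weeks after initiation and wild-type tumors after 24 to 27 weeks, so that *Trp53* status and tumor age cannot be told apart. Animals 1 and 4 were female, as were 7 of the wild-type libraries, and *Xist* and 4 Y-linked genes matched the labelled sex in each of the 14 samples. The study counts fewer mice than libraries in the wild-type group, and the p-values treat libraries as independent although a mouse may have given more than 1.

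*Trp53* encodes p53, a transcription factor that is stabilised after DNA damage or oncogene activity and turns on genes of cell cycle arrest, cell death, DNA repair and metabolism. Its best known arrest target is *Cdkn1a*, which encodes the CDK inhibitor p21, and its target *Mdm2* encodes the ubiquitin ligase that degrades p53. Loss of p53 is frequent in lung adenocarcinoma and is known for permitting tumor progression.

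*Trp53* itself was low in each *Trp53*-deleted sample. Its normalised level was 1.44, 4.95, 2.52 and 1.39 CPM (counts scaled to a common library total) in animals 1 to 4, and 12.1, 26.4 and 35.3 CPM in the lowest, median and highest wild-type library. The groups did not overlap, and the gene was still counted in every animal, with 3 to 32 counts. Among the single libraries the largest number was 19 counts, in the T1 library of animal 2, and the smallest was 1 count. A gene total does not show whether these reads came from exons outside the floxed part of *Trp53* or from cells in which the gene was intact. The log2 difference was -3.16 by the mean of log2 CPM (two-sided exact permutation test, p = 0.002, adjusted p = 0.002 over 2 genes), and -3.28 in the fit across all genes (SE 0.39, adjusted p = 0.000871, n = 4 and 10). *Stk11* was at 0 to 0.525 CPM (0 to 4 counts) in the *Trp53*-deleted animals and at 0 to 1.1 CPM (0 to 2 counts) in the wild-type libraries.

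*Cdkn1a* stood at 129, 89.3, 146 and 172 CPM in animals 1 to 4. In the wild-type libraries its lowest, median and highest levels were 262, 309 and 498 CPM. The highest deleted animal thus lay below the lowest wild-type library. The log2 difference was -1.36 (two-sided exact permutation test, p = 0.002, adjusted p = 0.002 over 2 genes), and the fit across all genes gave the same size (SE 0.219, adjusted p = 0.0144). Within the treatment arms the log2 fold change of *Cdkn1a* was -1.52 with vehicle (2 against 6) and -1.29 with tamoxifen (2 against 4), and neither arm alone passed the test (adjusted p = 0.107 and 0.715). Among female mice (2 against 7) it was -0.96 (adjusted p = 0.114). The call was also lost without animal 1 (adjusted p = 0.0813) or animal 2 (adjusted p = 0.0546).

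Across all genes, few passed the test. Of 12725 genes tested, 24 differed between *Trp53*-deleted and wild-type tumors at an adjusted p under 0.05 (0.189%), 12 of them higher and 12 lower (0.0943% in each direction). At an unadjusted p under 0.05 there were 2026 genes (15.9%), 954 higher and 1072 lower, the background for the gene lists below. The number depended on single libraries. It was 15 to 20 without any one of 12 samples, including 15 without animal 4 and without wild-type library 3 or 9, but 75 without wild-type library 4 and 1183 without wild-type library 8, of which 637 were higher. DESeq2 in place of edgeR called 255 genes, 112 higher and 143 lower. All 12 genes that fell were lower in all 4 animals than in all 10 wild-type libraries. That arrangement was found for 46 of the genes tested (0.361%). Of the 12 genes that rose, 9 had the reverse arrangement, found for 42 (0.33%). It is read from the values that gave the calls and is no separate support. Genes nearly absent from wild-type libraries could pass the expression filter mainly through the animals. Among the genes that rose, *Tff2* had 0 counts in 9 of 10 wild-type libraries.

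Of 51 known p53 target genes in 6 groups, 47 were tested and 4 fell, *Ccng1*, *Cdkn1a*, *Zmat3* and *Phlda3*, and 0 rose (15 lower and 3 higher at an unadjusted p under 0.05; DESeq2 called 8 lower and 0 higher). The median log2 fold change of the 47 was -0.29, beside -0.02 over all genes tested, and 32 of the 47 were negative. In 6 of the 47 the 4 animals all lay below the 10 wild-type libraries, beside 46 of all 12725 genes tested (0.361%). By animal, the median difference of the 47 from the wild-type mean was -0.09, -0.40, -0.28 and -0.19 in animals 1 to 4. Without wild-type library 8, 10 of the 47 fell and 4 rose, *Pmaip1*, *Perp*, *Epha2* and *Kitl*. In that fit, which gave the most calls of those without 1 sample, 546 of all 12118 genes tested fell and 637 rose. Library 8 held the highest wild-type level of each of the 4 targets that rose without it.

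The groups differed in what they held. Among 8 tested genes of cell cycle arrest, 3 fell and the median was -0.06, since the remaining 5 lay near or above 0. *Ccng1*, which encodes cyclin G1, was at 149, 103, 214 and 232 CPM in animals 1 to 4 and at 413, 574 and 997 CPM in the lowest, median and highest wild-type library (log2 fold change -1.88, SE 0.264, adjusted p = 0.00432). *Zmat3*, an RNA-binding zinc finger protein, was at 63.6, 51.6, 52.7 and 57.9 CPM against 96.8, 158 and 285 CPM (log2 fold change -1.67, SE 0.3, adjusted p = 0.0335). Both genes were lower in every animal than in every wild-type library. The call on *Zmat3* was the less stable one, lost without any one of the 4 animals (adjusted p = 0.0922 to 0.134), without wild-type library 1, 3, 6, 7, 9 or 10 (0.0532 to 0.0668), among female mice and in both treatment arms, whereas *Ccng1* passed without any one sample and in the vehicle arm (log2 fold change -2.09, adjusted p = 0.00702), though not in the tamoxifen arm (-1.84, adjusted p = 0.617) or among female mice (-1.57, adjusted p = 0.0894). The arrest genes *Gadd45a*, *Btg2* and *Sfn* had log2 fold changes of 0.10, 0.01 and -0.13 with overlapping levels, and the kinase gene *Plk3* had one of 1.35 (SE 0.566, adjusted p = 0.283).

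**Figure D1:**
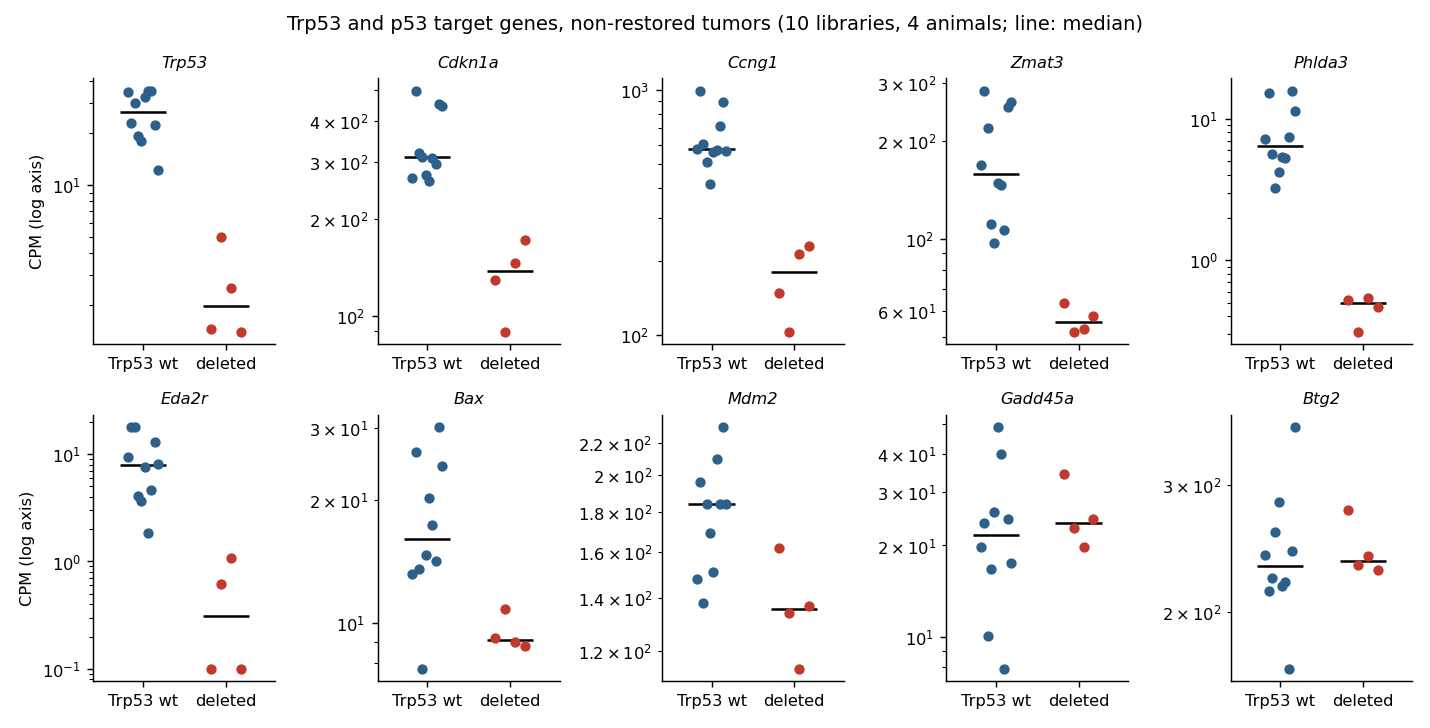
CPM on a log axis for *Trp53* and 9 p53 target genes in the 10 wild-type libraries (blue) and 4 *Trp53*-deleted animals (red) of non-restored tumors, with each group's median as a line. *Trp53*, *Cdkn1a*, *Ccng1*, *Zmat3*, *Phlda3* and *Eda2r* show no overlap between the groups, *Bax*, *Mdm2*, *Gadd45a* and *Btg2* do, and the 2 animals with 0 counts of *Eda2r* are drawn at the bottom of its axis.

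Among targets of metabolism and growth signals, 1 of 9 tested genes fell, and the median was -0.48. *Phlda3*, whose product blocks membrane binding of the kinase AKT, was at 0.525, 0.31, 0.54 and 0.463 CPM in animals 1 to 4, from 1 to 4 counts each. In wild-type libraries it was at 3.25, 6.36 and 15.8 CPM, again without overlap (log2 fold change -4.03, SE 0.539, adjusted p = 0.00282). The summed counts were 10 in the deleted and 242 in the wild-type libraries, a ratio per total of 17.7 with an exact 95% interval of 9.46 to 37.4 that covers counting error only. The remaining 8 tested genes of this group did not pass. *Sesn2*, a sestrin that restrains mTORC1, was at 11, 7.74, 10.1 and 6.48 CPM against a wild-type median of 24.4 CPM (log2 fold change -1.36, adjusted p = 0.139; DESeq2 adjusted p = 0.00584).

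Among 11 tested targets of cell death, 0 passed in the fit with edgeR (2 at an unadjusted p under 0.05; 1 by DESeq2), and their median log2 fold change was -0.27. *Eda2r*, a death receptor of the TNF receptor family, had 0 counts in animals 1 and 4 and 0.619 and 1.08 CPM in animals 2 and 3. A count of 0 allows levels of up to 0.363 CPM in animal 1 and 1.34 CPM in animal 4. Wild-type libraries held 1.83, 7.84 and 17.8 CPM, so that the groups did not overlap, and the gene missed the threshold (log2 fold change -4.14, SE 0.825, adjusted p = 0.0644; DESeq2 adjusted p = 1.38e-05). *Bax*, the pore-forming effector of mitochondrial apoptosis, was at 9.18, 10.8, 9 and 8.79 CPM against 7.72, 16.1 and 30.2 CPM, with overlap through 1 wild-type library (log2 fold change -0.94, SE 0.292, adjusted p = 0.206). The BH3-only genes *Bbc3* and *Pmaip1* had log2 fold changes of -0.42 and 1.29, with SE 0.533 and 1.22. *Pmaip1* was at 135, 13.8, 1.08 and 56.5 CPM in animals 1 to 4, against 1.01, 4.01 and 163 CPM, the highest level being that of wild-type library 8. Its log2 fold change ran from 0.14 to 3.57 when single samples were left out. It was called in 1 of these 14 fits, that without library 8 (log2 fold change 3.57, adjusted p = 0.0243).

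The feedback targets all had negative log2 fold changes and did not pass. *Mdm2* was at 162, 134, 114 and 137 CPM against 138, 184 and 230 CPM, and its log2 fold change was -0.39 (SE 0.141, adjusted p = 0.246). Its relative *Mdm4*, which also inhibits p53, was at -0.44 (SE 0.128, adjusted p = 0.188). The 4 genes of this group had a median of -0.31, with 0 called by edgeR or DESeq2 and 2 at an unadjusted p under 0.05.

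The 6 DNA repair targets had a median of -0.29, 0 calls by edgeR and 1 by DESeq2. At an unadjusted p under 0.05 there were 4, in both directions, beside 15.9% of all genes tested. *Ercc5*, an endonuclease of nucleotide excision repair, was at 17.6, 16.4, 14.4 and 14.8 CPM, each below the lowest wild-type library at 17.9 CPM (log2 fold change -0.94, SE 0.241, adjusted p = 0.146). *Polh*, a translesion polymerase, lay the other way at 1.23 (SE 0.369, adjusted p = 0.192). The 9 remaining targets had a median of -0.71, led by the phosphatase gene *Ptp4a3* at -1.59 (SE 0.453, adjusted p = 0.179), again with 0 calls by edgeR, 3 at an unadjusted p under 0.05 and 1 by DESeq2. *Cdkn2a*, whose products include ARF, the upstream inhibitor of MDM2, was at 4.72, 14.4, 7.74 and 0.463 CPM against a wild-type range of 1.16 to 6.57 CPM and did not pass (log2 fold change 0.91, SE 0.5, adjusted p = 0.372). This gene total does not separate its products.

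**Figure D2:**
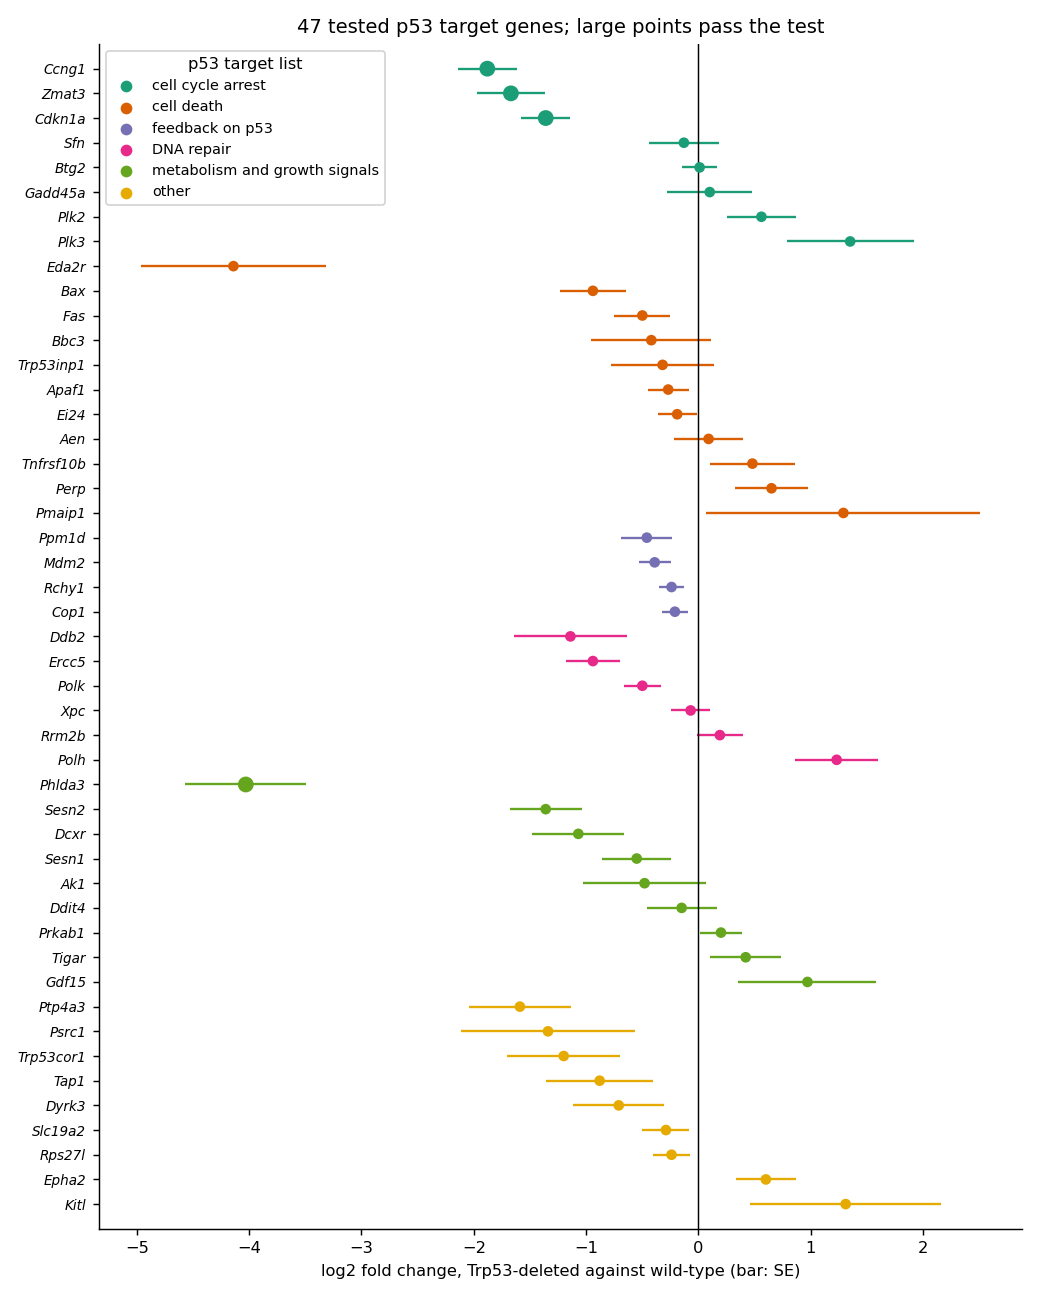
Log2 fold change of the 47 tested p53 target genes between *Trp53*-deleted and wild-type non-restored tumors (x axis; bars are SE, n = 4 and 10), one gene per line and coloured by group of targets. The 4 large points, *Ccng1*, *Zmat3*, *Cdkn1a* and *Phlda3*, passed the test, and *Eda2r* at -4.14 did not.

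Which of these genes carry a p53 response element close to their start site was read from RefSeq promoters of the GRCm38.p6 assembly, each running from 250 bases before to 50 bases after a start site. The element is a pair of 10-base units, read identically on both strands, and was searched with a spacer of at most 13 bases and at most 2 mismatches, with the central C and G of each unit kept. It was found in 1342 of 32851 promoters (4.09%). Of the 51 targets, 39 matched a promoter by symbol, and 6 of their 52 promoters held it (11.5%), those of *Cdkn1a*, *Ccng1*, *Rps27l*, *Bax*, *Gadd45a* and *Sesn1*. Of the 11 promoters of the 12 genes that fell, 2 held it (18.2%), *Cdkn1a* and *Ccng1*, and of the 7 promoters of genes that rose, 0 did. The sites of these 2 genes are shown with those of *Rps27l* and *Bax*, whose element did not go with a call. The 2 units are in capitals.
Cdkn1a: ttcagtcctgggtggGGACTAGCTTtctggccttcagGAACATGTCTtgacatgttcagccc
Ccng1: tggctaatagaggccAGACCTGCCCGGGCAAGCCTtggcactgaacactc
Rps27l: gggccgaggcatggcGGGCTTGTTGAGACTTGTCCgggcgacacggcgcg
Bax: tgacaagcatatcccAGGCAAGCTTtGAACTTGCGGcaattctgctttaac

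The *Cdkn1a* stretch lies at chr17:29090891-29090952 on the plus strand. Its element has 0 mismatches and a spacer of 12 bases, and starts 73 bases before the start site. That of *Ccng1*, at chr11:40755447-40755496 on the minus strand, has 1 mismatch, a spacer of 0 bases and starts 195 bases before the start site. Both stretches lie upstream of the transcribed gene. The element of *Rps27l*, at chr9:66946281-66946330 on the plus strand, also has 1 mismatch and a spacer of 0 bases, yet the gene was at 146, 149, 184 and 182 CPM against a wild-type median of 184 CPM (log2 fold change -0.24, SE 0.162, adjusted p = 0.454). That of *Bax* lies at chr7:45467064-45467114 on the minus strand and has 2 mismatches. No match was found in the window of *Phlda3*, which says only that these letters are not in this window.

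Among the genes that fell outside the target lists were enzymes and regulators of several kinds. *Ephx1*, the microsomal epoxide hydrolase that detoxifies reactive compounds, was at 1.84, 6.66, 1.8 and 2.31 CPM against 12.1, 33.1 and 59.8 CPM in the lowest, median and highest wild-type library (log2 fold change -3.42, SE 0.552, adjusted p = 0.0159), and its call was lost without animal 1, 3 or 4, where the highest adjusted p was 0.0989. *Dglucy*, a mitochondrial D-glutamate cyclase, was at 0.131, 0.774, 0.9 and 0.926 CPM against 4.73, 7.84 and 10.5 CPM (log2 fold change -3.55, SE 0.436, adjusted p = 0.0011), from 13 summed counts against 234. Neither gene had overlapping groups. *Tcea3*, a transcription elongation factor, had 1 or 2 counts in each animal and 1.34, 7.06 and 13.6 CPM in the wild-type libraries. The ratio of its summed counts per total was 35, with an exact 95% interval of 14.8 to 109 for counting error only (adjusted p = 0.00432).

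*Gas5*, a non-coding RNA that hosts small nucleolar RNAs, was at 67.4, 54.7, 51.8 and 43.5 CPM against 144, 258 and 386 CPM (log2 fold change -2.27, SE 0.265, adjusted p = 0.000794). *Wrn*, the RecQ helicase mutated in Werner syndrome, was at 40, 35.1, 33.6 and 38 CPM against 51.7, 77.4 and 94.7 CPM (log2 fold change -1.05, SE 0.156, adjusted p = 0.00631). Both were called without any one of the 14 samples.

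Genes that rose included secreted and surface proteins with a wide spread among the 4 animals. *Tff2*, a trefoil peptide of the stomach mucosa, was at 4.72, 25.7, 1.26 and 270 CPM, and at 0 counts in 9 of 10 wild-type libraries, with 3.25 CPM in library 8 (log2 fold change 7.28, SE 1.23, adjusted p = 0.0265; DESeq2 adjusted p = 0.0593). Animal 3 lay below that one library, so the groups overlapped. *Tff2* remained called in 2 of the 8 fits without a single sample in which it was tested, and had an adjusted p of 0.263 without animal 4. *Chil4*, a chitinase-like protein, was at 3.02, 37.8, 487 and 145 CPM against 0, 0.287 and 13.7 CPM (log2 fold change 6.23, SE 1.12, adjusted p = 0.0349; 0.187 without animal 3), again with overlap, since animal 1 lay under the highest wild-type library.

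The matrix genes *Fbln2* and *Mmp3* were each led by animal 1. *Fbln2*, a fibulin of the extracellular matrix, was at 71.1, 10.8, 5.04 and 4.17 CPM against a wild-type range of 0 to 3.36 CPM (log2 fold change 4.57, SE 0.798, adjusted p = 0.0316; 0.301 without animal 1). *Mmp3*, the protease stromelysin, was at 34.8, 5.26, 4.5 and 4.17 CPM against 0 to 1.83 CPM (log2 fold change 3.86, SE 0.731, adjusted p = 0.0477), and had an adjusted p of 0.338 without animal 1.

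*Raet1e* encodes a ligand of the NK cell receptor NKG2D. It was at 18.1, 28, 31.8 and 32.4 CPM against 0, 0.441 and 8.94 CPM (log2 fold change 4.40, SE 0.781, adjusted p = 0.0335). All 4 animals lay above all wild-type libraries. Its near-identical neighbour *Raet1d* shares its sequence, so that reads could be split between them, and the sum of both was 34.7 to 42.1 CPM in the animals and 0 to 15.8 CPM in wild-type libraries.

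*Unc13c*, a protein of synaptic vesicle priming, was at 28.6, 31.6, 3.42 and 25.5 CPM against 0, 1.4 and 3.68 CPM (log2 fold change 3.78, SE 0.55, adjusted p = 0.00582), with animal 3 inside the wild-type range. *Spcs3*, a subunit of the signal peptidase of the endoplasmic reticulum, was at 358, 244, 295 and 374 CPM against 92.1, 127 and 228 CPM (log2 fold change 1.2, SE 0.219, adjusted p = 0.0349). The long non-coding RNA AC160336.1 was at 51.6, 8.82, 28.8 and 66.6 CPM against 2.1 to 5.49 CPM (log2 fold change 3.41, SE 0.375, adjusted p = 0.000489).

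The last 2 genes that rose had small changes and are named after their values were seen. *Usmg5*, a subunit of the mitochondrial ATP synthase, was at 85.5, 72, 74.8 and 79.6 CPM against 27.4, 37.7 and 51.4 CPM (log2 fold change 0.96, SE 0.142, adjusted p = 0.00606). *Mpzl1*, a cell surface glycoprotein, was at 35.8, 28.5, 25.4 and 27.8 CPM against 11.8, 15.5 and 20.5 CPM (log2 fold change 0.88, SE 0.151, adjusted p = 0.0243). Of the 24 genes, 13 kept their call without any one of the 14 samples. Among the others, *Raet1e* and *Mmp3* kept it in 2 of 14 such fits, *Spcs3* in 3, *Zmat3* and *Acadvl* in 4, *Fbln2* in 6, *Mpzl1* in 8, *Ephx1* in 11 and *Cdkn1a* in 12, *Chil4* in 3 of 13 and *Tff2* in 2 of 8.

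The smallest p-values belonged to copies of ribosomal protein genes, which are uncertain. *Gm11361* (log2 fold change 5.69, adjusted p = 7.23e-07) and *Gm10260* (6.90, adjusted p = 1.23e-05) are near-identical to *Rps18*, and *Rpl3-ps1* (-3.28, adjusted p = 1.56e-05) is near-identical to *Rpl3*, by at least 95% identity over at least 80% of the transcript. Summed with their copies, the *Rps18* family was at 474 to 834 CPM in the animals and 334 to 772 CPM in wild-type libraries, and the *Rpl3* family at 697 to 819 and 655 to 942 CPM. Neither family sum separated the groups, and a gene table does not show how reads were divided among copies.

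The same comparison was then made in tumors whose *Lkb1* had been restored by FLPo-ERT2 and tamoxifen, with 4 *Trp53*-deleted and 7 wild-type libraries, all female. These share no sample with the comparison above and carry the same difference in tumor age. Titles of *Trp53*-deleted restored libraries 1 and 2 begin with JB, of library 3 with rSP and of library 4 with tSP. Those of all wild-type restored libraries begin with rSP, so that the title series differs between these groups too. Here too the study counts fewer mice than wild-type libraries, so that those may share mice. There, 97 of 12619 genes passed (0.769%), 49 higher and 48 lower. Of the 24 genes, 23 were tested in restored tumors, 22 had the same direction and 11 passed, which is 45.8% of the 24 and 11.3% of the 97. The 11 include *Trp53*, the deleted gene itself, and the uncertain ribosomal copies *Gm11361*, *Gm10260* and *Rpl3-ps1*. Of 12245 genes tested in both, 72.7% had the same direction. The count of 97 was 22 to 174 without single samples, 170, 42 and 22 without *Trp53*-deleted libraries 1, 2 and 3, and 52, 45, 54, 174, 60 and 50 without wild-type libraries 1, 2, 3, 5, 6 and 7.

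In restored tumors *Cdkn1a* stood at -1.62 on the log2 scale (SE 0.24, adjusted p = 0.00915), *Ccng1* at -1.83 (SE 0.213, adjusted p = 0.00109), *Zmat3* at -1.72 (SE 0.186, adjusted p = 0.000596) and *Phlda3* at -2.22 (SE 0.402, adjusted p = 0.025). *Trp53* itself was at 3.11 ± 0.733 CPM in deleted and 30.6 ± 7.9 CPM in wild-type restored libraries (SD, n = 4 and 7). *Ephx1* (-3.47) and *Dglucy* (-3.95) also passed there, with adjusted p = 0.000981 and 0.0126. Of the 47 targets, 7 fell in restored tumors and 0 rose, with a median of -0.39. These included *Eda2r* at -5.26 (SE 1.06, adjusted p = 0.0401) and *Psrc1* at -4.12 (SE 0.591, adjusted p = 0.00788), which was at -1.34 in non-restored tumors (SE 0.776, adjusted p = 0.393).

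*Mmp3* had the opposite direction in restored tumors, at -1.31 (SE 1.32, adjusted p = 0.647), and *Tcea3* was not tested there. *Gas5*, *Wrn*, *Tff2*, *Raet1e* and *Spcs3* kept their direction without passing. A direct test of the difference between the 2 comparisons called 0 of 13706 genes by edgeR, with 422 at an unadjusted p under 0.05, and 0 by DESeq2. The difference for *Cdkn1a* was -0.27 (SE 0.315) and for *Phlda3* 1.80 (SE 0.622), both with an adjusted p of 1. Among female mice alone it called 1 gene, AC160336.1.

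**Figure D3:**
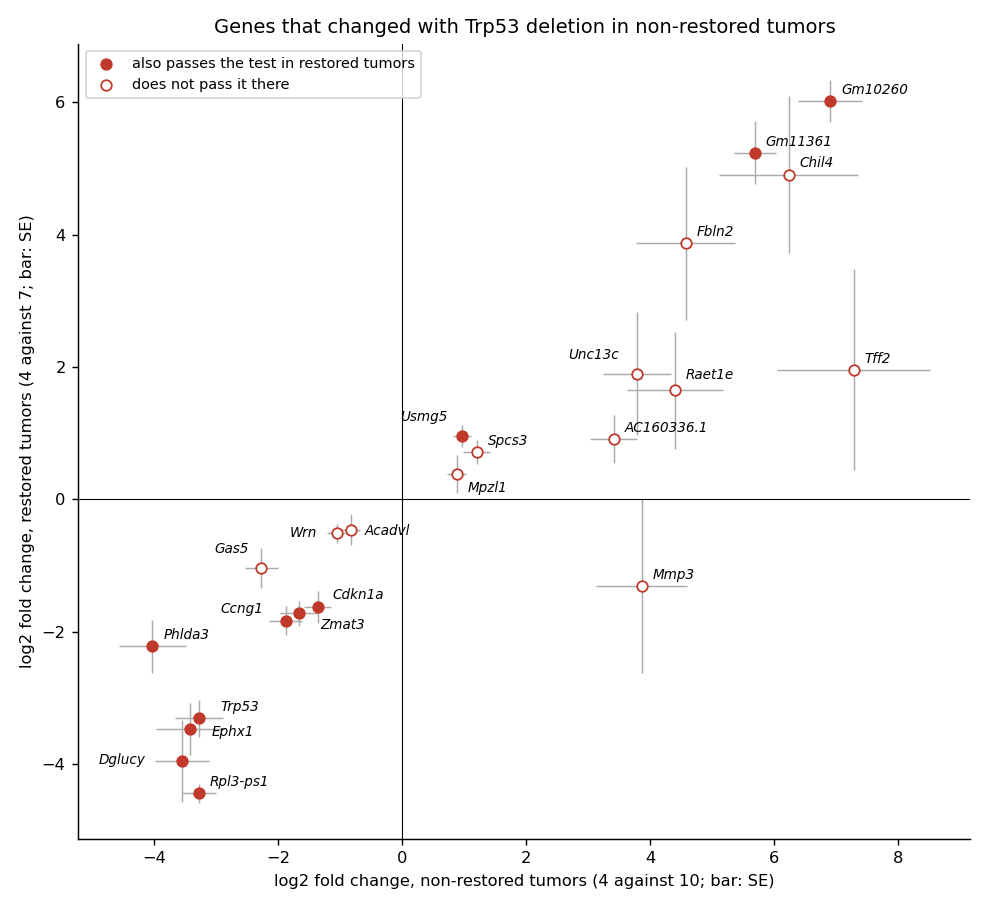
Log2 fold change with *Trp53* deletion in non-restored (x axis, 4 against 10) and restored (y axis, 4 against 7) tumors for the 23 called genes tested in both, with SE as bars. Filled points passed the test in both, and *Mmp3* is the one gene in the quadrant of opposite directions.

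The tumors also differed along an axis on which the groups overlapped. The first principal component of the 500 most variable genes held 62.8% of their variance. On it the deleted animals scored 18.8, 7.93, 39.3 and 58.1. Wild-type library 8 scored 60.4 and library 4 scored 32.6, while library 5 was at 8.01 and the other 7 lay below 0. All 4 animals thus lay above 0, with 3 of the 10 wild-type libraries. Its high end was led by the mast cell proteases *Mcpt1* and *Mcpt2*, followed by the mucosal protein *Dmbt1* and the trefoil peptide *Tff1*, and its low end by the carbonyl reductase *Cbr2*. With the score as a covariate, an alternative chosen after seeing the data, 16 genes were called, 13 of them among the 24. *Trp53* (adjusted p = 0.000901), *Ccng1* (0.0145) and *Phlda3* (0.00504) still passed, and *Cdkn1a* (log2 fold change -1.21, adjusted p = 0.0666) and *Zmat3* (-1.05, adjusted p = 0.0666, beside -1.67 without the covariate) did not.

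Alveolar type II (ATII) cells produce the surfactant of the alveolus. The summed level of their genes was 34794, 44640, 34623 and 13687 CPM in animals 1 to 4, against 10742, 68948 and 99455 CPM in the lowest, median and highest wild-type library. Of 18 tested, 16 were negative, the median was -0.81, and 0 were called by edgeR and 2 by DESeq2. At an unadjusted p under 0.05 there were 4, beside 15.9% of all genes tested. *Lyz2*, the lysozyme of ATII cells and macrophages, was at 959, 975, 983 and 45.4 CPM against 601, 5847 and 11211 CPM (log2 fold change -3.04, SE 0.826, adjusted p = 0.173), and *Sftpc*, surfactant protein C, was at 7412, 12970, 6377 and 613 CPM against 1484, 23107 and 35347 CPM (log2 fold change -1.67, SE 0.725, adjusted p = 0.289). Fewer cells of a type and less RNA per cell cannot be told apart in bulk libraries. Without wild-type library 8, which had the lowest sum of all samples, 6 of the 18 fell, *Lyz2* among them (log2 fold change -3.18, adjusted p = 0.0243). In that fit 546 of all 12118 genes tested fell, and leaving out the lowest sample favours a fall by construction.

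MHC class II genes, which ATII cells also express, had the same arrangement, with all 7 negative, a median of -1.30 and 0 calls by edgeR. DESeq2 called 1, and 3 had an unadjusted p under 0.05, beside 15.9% of all genes tested. The class II sum was 903, 1486, 510 and 100 CPM in the animals, against 175 to 2420 CPM. *Nkx2-1*, the lineage factor of lung epithelium, was at 141, 182, 154 and 143 CPM against 71.1, 316 and 411 CPM (log2 fold change -0.93, SE 0.327, adjusted p = 0.243), and in restored tumors it fell by 0.85 on the log2 scale (adjusted p = 0.0415). Of 10 MHC class I genes, 7 were negative with a median of -0.31, and 0 were called by edgeR, with 1 at an unadjusted p under 0.05 and 1 called by DESeq2. Their sum was 836 to 1435 CPM in the animals and 957 to 3971 CPM in wild-type libraries, and their median in restored tumors was 0.05. The 1 member without overlap, *H2-K1*, was at 101, 156, 226 and 62.5 CPM, below all wild-type libraries from 268 CPM up. It did not pass (log2 fold change -2.03, SE 0.47, adjusted p = 0.137, and 0.000458 by DESeq2). That arrangement was found for 0.361% of all genes tested.

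At the other end, 10 tested gut and embryonic genes of progressed tumors had a median of 1.03, with *Tff2* called. The summed level of the list was 594, 1820, 6805 and 6918 CPM in the animals. It ran from 5.92 to 11938 CPM over wild-type libraries, with library 8 highest. Without library 8, singled out with its values known, the median was 2.15 over 8 tested genes. Leaving out the wild-type library with the highest sum moves the list towards a rise by construction. *Hmga2*, an embryonic chromatin protein, was at 51.2, 11.6, 40.1 and 7.87 CPM against 0, 0.61 and 13.8 CPM (log2 fold change 2.97, SE 0.923, adjusted p = 0.208). Genes of the plastic tumor cell state, a transitional state of lung tumor cells, had a median of 0.68 over 10 genes and 0 calls by edgeR, 1 at an unadjusted p under 0.05 and 1 by DESeq2. Library 8 also had the highest sum of this list. Without it the median was 1.23 and 2 rose, *Cldn4* and *Plaur*, beside 637 of all 12118 genes tested in that fit. The gene called by DESeq2 was the tight junction protein *Cldn4*, at 70.1, 31.4, 65.7 and 38 CPM against 9.09, 17.3 and 35.8 CPM (log2 fold change 1.52, SE 0.301, adjusted p = 0.0641).

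**Figure D4:**
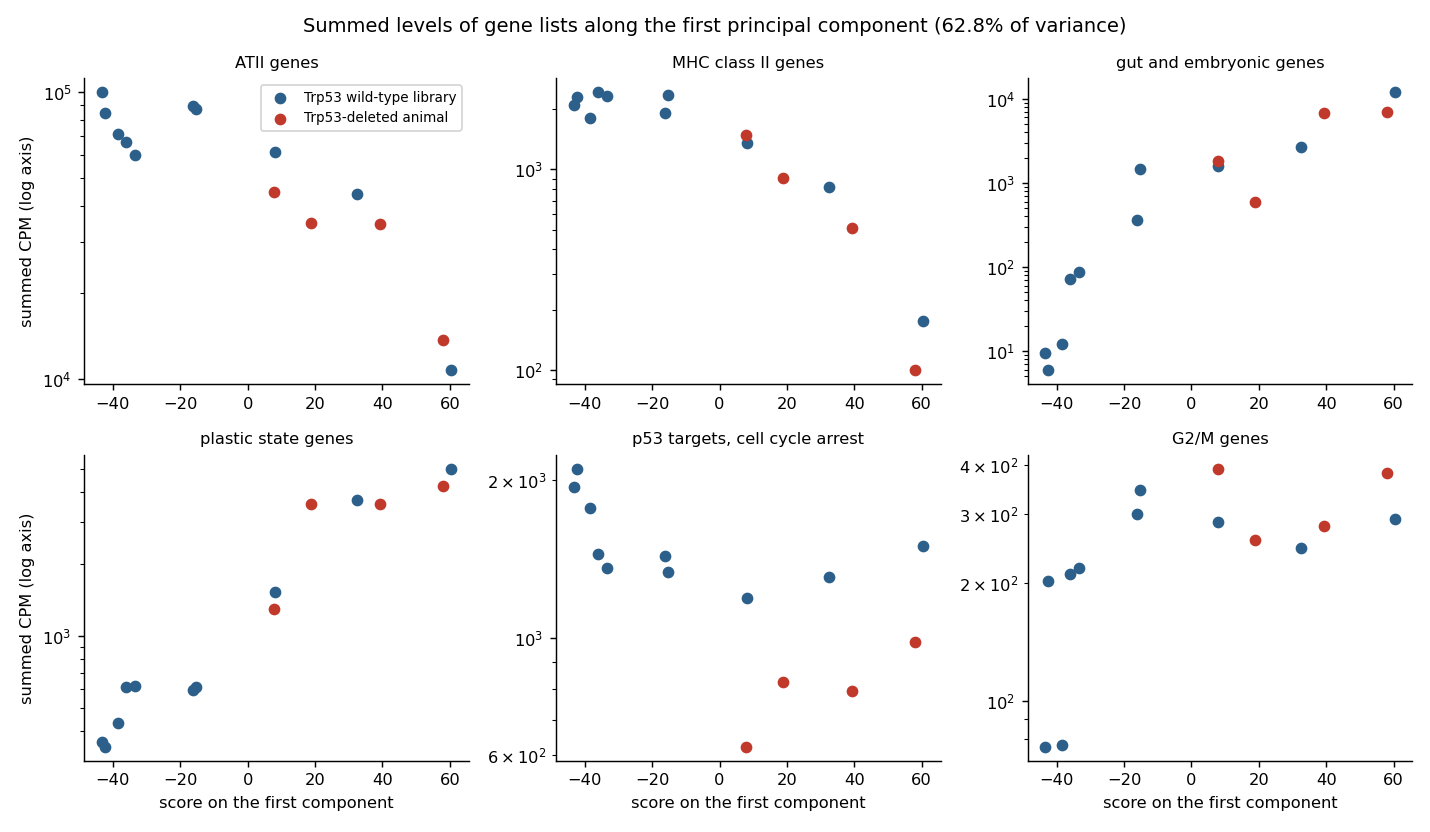
Summed CPM of 6 gene lists (y axes, log scale) against the score on the first principal component (x axes) for the 10 wild-type libraries (blue) and 4 *Trp53*-deleted animals (red). ATII and MHC class II sums are low and gut and plastic state sums high in wild-type library 8 as in the high-scoring animals, whereas the arrest targets of p53, a sum that includes the called genes *Ccng1*, *Cdkn1a* and *Zmat3*, are at 621 to 984 CPM in the animals and 1194 to 2102 CPM in wild-type libraries.

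Of 25 tested G2/M genes, 22 were positive with a median of 0.61, and 0 were called by edgeR or DESeq2. At an unadjusted p under 0.05 there were 4, beside 15.9% of all genes tested. *Cdk1*, the kinase that drives mitosis, was at 6.43, 8.36, 6.3 and 6.48 CPM, above the highest wild-type library at 6.27 CPM (log2 fold change 1.04, SE 0.484, adjusted p = 0.309). Of the G2/M list, 2 genes lay above all wild-type libraries in all animals, beside 0.33% of all genes tested. *Ccnb2*, its cyclin partner, was at 1.03 (SE 0.394, adjusted p = 0.253). Summed, the G2/M list was at 257 to 390 CPM in the animals and 76.5 to 344 CPM in wild-type libraries. Genes of G1/S and replication had a median of -0.14 over 23 genes, 0 calls by either tool and 1 at an unadjusted p under 0.05. In restored tumors the medians were 0.79 and 0.23, again with 0 calls in both lists by edgeR. The CHR element of mitotic promoters, TTTGAA on either strand, was present in 20 of 25 promoters of 23 matched G2/M genes (80%) and in 5878 of all 32851 promoters of this length (17.9%).

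Of 14 genes of sterol synthesis and uptake, 13 were positive with a median of 0.44. At an unadjusted p under 0.05 there were 8, beside 15.9% of all genes tested. By edgeR 0 were called and by DESeq2 1, *Sqle*, squalene epoxidase (0.82, SE 0.217, adjusted p = 0.155). In restored tumors 2 of the 14 rose, *Sqle* among them (1.38, SE 0.237, adjusted p = 0.0165).

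*Trp53* lies on chromosome 11 at chr11:69580359-69591873. A targeted allele can carry flanking DNA of another strain, whose part in these values was not tested. Of 245 genes tested within 10 Mb of it, 1 was called (0.408%), *Acadvl*, the very long chain acyl-CoA dehydrogenase of mitochondria. It was at 18.5, 24.3, 24.8 and 20.8 CPM against 30.2, 40 and 50.6 CPM (log2 fold change -0.83, SE 0.148, adjusted p = 0.0316), a call kept without a single sample in 4 of 14 fits. In the window 48 genes had an unadjusted p under 0.05 (19.6%, beside 15.9% of all genes). Lower at that p were 44 of the 245, beside 1072 of all 12725 genes, and the median was -0.19. Relative to all autosomal genes, the median of chromosome 11 as a whole was -0.274, -0.168, -0.028 and -0.139 in animals 1 to 4. Its part in the values of the window was not tested.

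Expression by chromosome was more uneven in animals 1 and 4 than in any wild-type library. For each sample, the median difference of a chromosome's genes from the wild-type mean was taken relative to that of all 12175 autosomal genes tested, and its SD over the 19 autosomes was 0.178, 0.0729, 0.0909 and 0.191 log2 units in animals 1 to 4. In the 10 wild-type libraries, each set against the mean of the others, it was 0.029 to 0.101, with library 8 highest and library 4 next at 0.0826, so that animals 2 and 3 lay inside the wild-type range. The mean was 0.133 ± 0.0599 in the animals and 0.0506 ± 0.0228 in wild-type libraries (SD, n = 4 and 10; two-sided exact permutation test, p = 0.00999). By construction, any difference between the groups that is unevenly spread over chromosomes adds to the SD of the animals. The permutation exchanged finished SDs without rebuilding the wild-type reference, so its p-value does not correct for this. These are expression values that do not measure DNA copies.

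Some large shifts were found in 1 animal each. In animal 4 the genes of chromosome 3 lay 0.482 and those of chromosome 17 lay 0.343 above the rest, and in animal 1 those of chromosomes 16 and 19 lay 0.333 and 0.329 above it. The wild-type maxima for these chromosomes were 0.036, 0.084, 0.054 and 0.114. Chromosome 11, which holds *Trp53* and *Ccng1*, lay below 0 in all 4 animals, at -0.274, -0.168, -0.028 and -0.139, and the wild-type range was -0.034 to 0.024. Chromosome 6 was at 0.204, 0.192, 0.323 and 0.349 in the animals. Of the wild-type libraries, 4, 5 and 8 were at 0.327, 0.141 and 0.353 and the other 7 at or below -0.078, so that a raised chromosome 6 was found in samples of both groups.

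**Figure D5:**
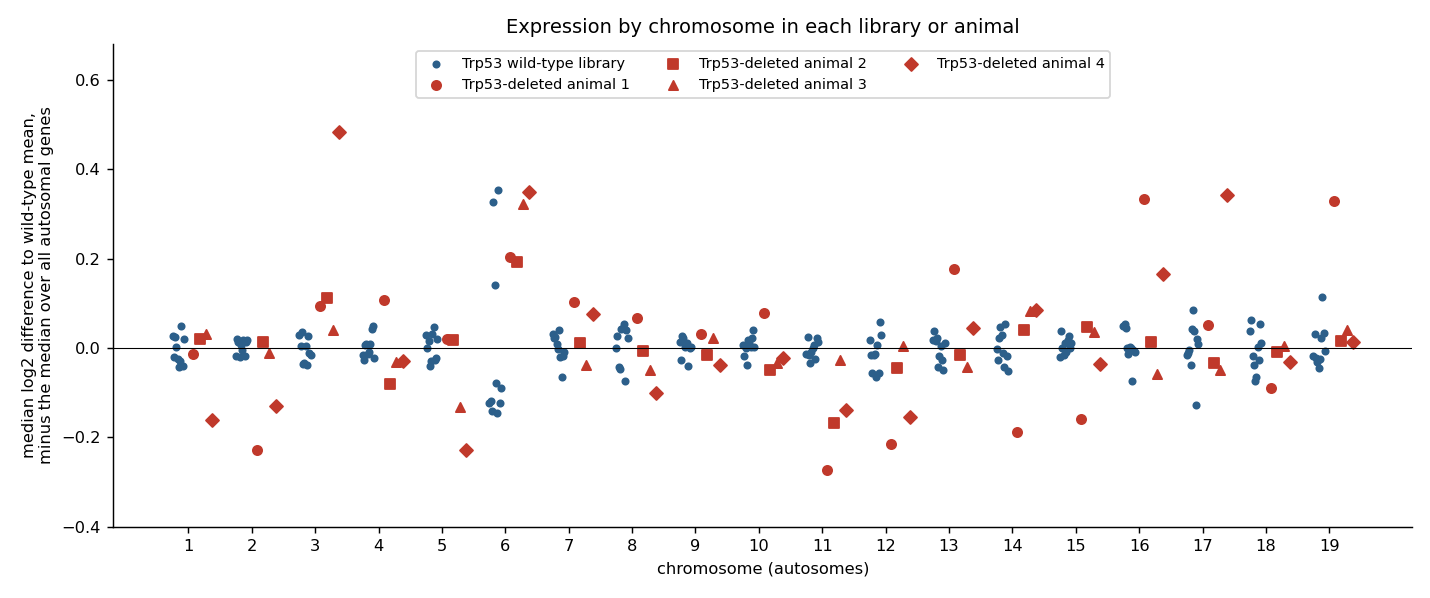
Median log2 difference from the wild-type mean for the genes of each autosome, relative to all autosomal genes (y axis), in each wild-type library (blue points) and *Trp53*-deleted animal (red symbols). Animals 1 and 4 leave the wild-type range on 15 and 14 autosomes and animals 2 and 3 on 5 and 4, beside 1 to 9 autosomes for a wild-type library set against the others, and chromosome 6 is raised in all 4 animals and in wild-type libraries 4, 5 and 8.

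Summed counts were 2233998 to 8258398 per animal and 1485923 to 5080811 per wild-type library. Cells had been sorted with exclusion of blood, endothelial and red blood cells, and 12 of 15 immune markers were above 3 counts in some sample, with sums of 18.1 to 70.2 CPM in the animals and 11.4 to 346 CPM in wild-type libraries. Fibroblast markers summed to 9.72 to 399 and 6.97 to 442 CPM, endothelial markers to 4.17 to 36.4 and 2.09 to 130 CPM, and the T cell marker *Cd3e* and the macrophage markers *C1qa* and *C1qc* stayed at or below 3 counts throughout. Their part in the results was not tested.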

How the data were processed

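Tumor cells were sorted as tdTomato-positive by the authors with cells carrying CD45, CD31, F4/80 or Ter119 left out, and RNA libraries were made with an rRNA-depleting kit from nanogram amounts. Per the labels and the study's methods, the authors aligned reads to mm10 with STAR 2.6.1d and deposited, per library and gene, expected counts and TPM estimated with RSEM 1.2.30, with effective lengths. The strand setting of the counting is not given in the sources used here. The authors' tables of DESeq2 means, fold changes and p-values, and a table of counts divided by DESeq2 factors, were not used. No per-library column was left unmapped (0 columns).

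Expected counts were rounded to whole numbers and summed per animal for the titles that share an animal number; what Bulk and T1 mean in those titles is not given. Libraries of one animal differed by more than counting error (chi-square per degree of freedom 9.14 to 74.1), and those of animal 1 were unlike each other: its T1 library had a Spearman correlation of 0.882 and 0.874 with its Bulk libraries and 0.944 with wild-type library 1. Genes were kept with edgeR's expression filter, scaled by TMM and tested with edgeR's quasi-likelihood test (edgeR 4.0.16, limma 3.58.1, R 4.3.3) with Benjamini-Hochberg adjustment at 0.05, over non-restored *Trp53*-deleted against wild-type samples with no covariate. DESeq2 1.42.0 was an alternative. Single values were tested by exact permutation over samples (Python 3.11.15, scipy 1.17.1). The scripts were tested on simulated data. Near-identical copies were found with blastn 2.17.0 and promoters taken from RefSeq tables of GRCm38.p6. Gene positions are from GENCODE M21 on GRCm38. Other settings were filters, size factors, effective lengths, treatment arm, sex, library type and leaving out each sample.

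Named were genes past the threshold with an absolute log2 fold change over 1 (at most 3 predicted genes), called p53 targets, called genes within 10 Mb of *Trp53*, and at most 4 members of other lists with the smallest p. The members and gene lists were chosen with earlier results of these data known. Depth was 1875593 to 5536484 counts per *Trp53*-deleted library. Intervals and floors (3 counts) cover counting error only. Some items are not reported here.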

Additional observations from a re-analysis of the deposited data

Results flagged for a closer look

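Among 52 groups of values examined, 4 held a sample far from the rest of its group by Dixon's criterion, which chance alone meets in about 1 in 20 groups. All 4 were values of called genes. *Dglucy* in *Trp53*-deleted animal 1 stood at -0.58 log2 CPM (0.131 CPM), below the other 3 animals. *Unc13c* in animal 3 stood at 1.98 log2 CPM (3.42 CPM), below the others. *Mmp3* in animal 1 stood at 5.14 log2 CPM (34.8 CPM), above the others. *Tff2* in wild-type library 8 stood at 1.92 log2 CPM (3.25 CPM), while the other 9 wild-type libraries had 0 counts.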

How the results depend on the processing

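The count of 24 genes was 255 with DESeq2, 116 with libraries as separate samples, 100 in a fit of all 5 groups, 54 with sex as a covariate, 10 with at least 10 counts in every sample, 14 among female mice, 8 in the vehicle arm and 0 in the tamoxifen arm by edgeR (795 at an unadjusted p under 0.05). It ran from 15 (without animal 4 or wild-type library 3 or 9) to 1183 (without library 8) when single samples were left out, with 75 without library 4; the cause was not tested. Of the 24 genes, 22 were among the 255 and 22 among the 1183. Counts of 17 to 35 came from the other settings, and 16 with the first component as a covariate, which was chosen after seeing the data. In restored tumors the count of 97 was 574 with DESeq2 and 22 to 174 without single samples. The test of the difference between the settings called 0 genes, and 1 among female mice. The median of the p53 targets stayed between -0.37 and -0.22 without single samples, the difference in *Trp53* between -3.48 and -2.98, that in *Cdkn1a* between -1.49 and -1.17, and the chromosome SD difference between 0.0634 and 0.103. None of the 24 genes reversed, while *Gadd45a*, *Btg2* and *Sfn*, which lay near 0, changed sign without library 8 (-0.01, -0.04 and 0.01). No paired analysis was possible because the labels number only the wild-type libraries, so that the groups share no replicate numbers. Depth limits *Phlda3*, *Tcea3*, *Dglucy* and *Eda2r*, which had 0 to 6 counts per *Trp53*-deleted animal.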

Other observations

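Lists of energy metabolism and lineage that the comparisons above did not use held 0 calls by edgeR or DESeq2. Of 14 glycolysis genes, 13 were positive, with a median log2 fold change of 0.34 and 1 at an unadjusted p under 0.05, beside -0.02 over all genes tested. The 11 tested hypoxia genes had a median of 0.21 and the 14 interferon response genes one of -0.32. At an unadjusted p under 0.05 there were 1 hypoxia gene, 0 interferon genes, 2 alveolar type I genes and 0 mesenchymal genes. Genes of alveolar type I cells, the flat gas-exchange cells, had a median of -0.68 over 13 genes, and their sum was 1972 to 2881 CPM in the *Trp53*-deleted animals and 1486 to 4390 CPM in wild-type libraries. Mesenchymal genes had a median of -0.29 over 10 genes and one of 1.31 in restored tumors.

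Airway markers were uneven among samples of both groups. Their sum was 299, 672, 188 and 13107 CPM in animals 1 to 4, and 50.7 to 6601 CPM in wild-type libraries, with library 8 highest. The mucin gene *Muc5b* carried most of it, at 13066 CPM in animal 4 and 6582 CPM in the highest wild-type library.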
